A study of Arabidopsis thaliana with 6 samples.

Results

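The 26S proteasome is the protease complex that degrades ubiquitin-tagged proteins in the cytosol and nucleus of eukaryotic cells. Its 20S core particle is a barrel of alpha rings, which form the gate, and beta rings, which hold the proteolytic sites. Its 19S regulatory particle consists of RPT ATPases, which unfold substrates and thread them into the core, and of RPN subunits, which bind ubiquitin chains, remove them and hold the particle together. Arabidopsis encodes many of these subunits by pairs of closely related genes. The genes described here are 41 of the 27827 probe sets of the array, chosen by locus as subunits of these classes. They are 12 genes of the 20S alpha class, 11 of the 20S beta class, 10 of the 19S RPT class and 8 of the 19S RPN class. All 41 were found in the deposited table, and no filter on signal was applied. A subunit symbol was paired with 35 of the loci in the table of gene names, and the other 6 are given by locus within the class they were listed for.

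RNA of whole *Arabidopsis thaliana* seedlings was profiled with gene-level Affymetrix oligonucleotide arrays, 3 of *naa20* and 3 of wildtype. The *naa20* seedlings carry the *naa20-1* T-DNA insertion in the gene of the catalytic subunit of NatB, the N-terminal acetyltransferase for proteins that start with methionine before an acidic or amide residue. The wildtype was the accession Col-0. Both genotypes were grown in short days with 2 mM dithiothreitol (DTT), a thiol reductant, which per the labels began with a transfer at day 2 and lasted 15 days until harvest at day 17. Each value therefore compares *naa20* with wildtype on DTT, and arrays without DTT were not analysed here. The mutant is represented by 1 insertion line. For long DTT treatments the methods describe that *naa20* seeds were first kept on medium without DTT because they germinate late, so that the start of DTT may have differed between the genotypes. Whether this held for the arrays is not stated. The labels describe pools of at least 10 seedlings, whereas a legend of the study describes individual plants, so that p-values measure the spread between these arrays, whichever they were. The same legend states that the 3 samples per condition were chosen from a larger number for the integrity and purity of their mRNA.

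Signals are log2 values, so that a difference of 1 is a 2-fold difference. Genes were tested with limma, p-values were adjusted by Benjamini-Hochberg across the 27827 probe sets, and a gene was called at an adjusted p under 0.05. Errors of differences are limma's standard errors (SE). The *NAA20* transcript (AT1G03150) was lower on each *naa20* array than on each wildtype array, with a log2 difference of -1.38 (SE 0.16, limma adjusted p = 0.000689). Arrays of one genotype correlated with each other at 0.991 to 0.996 across genes. The seedlings expressed both shoot and root markers. Of 5 shoot markers, 4 were called lower in *naa20*, from -0.88 for *CAB1* to -0.39 for *RCA*, and *RBCS1A* had the same signal on every array. Of 7 root markers, 5 were called lower, from -2.43 for the endodermis gene *CASP1* to -0.49 for *SCR*. *PYK10* was called higher with 0.31 and *SHR* was not called. Over all probe sets, 17.4% were called lower in *naa20* and 16.6% higher. The root hair genes *SHV2* and *EXPA7* differed by -2.23 and -1.89 and the nitrate transporter gene *NRT2:1* by -1.79. The log2 signals of *NRT2:1* in *naa20*, 3.24, 3.47 and 3.39, were near the lower end of the array, so the size of its difference is uncertain. The summed linear signal of the shoot markers was 32920 to 36024 in *naa20* and 41710 to 43233 in wildtype. Of these markers *RBCS1A* had the highest log2 signal, 14.18 on every array, which adds the same amount to each sum. The summed linear signal of the root markers, of which *PYK10* made up most, was 14144 to 14614 in *naa20* and 13090 to 13757 in wildtype. The part of tissue makeup in the values that follow was not tested. In whole seedlings, a smaller share of cells of a type and less RNA per cell cannot be told apart.

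Most proteasome subunit genes gave a higher signal in *naa20*. Of the 41 genes, 33 were called higher in *naa20* and 0 were called lower by limma, while over all probe sets 16.6% were called higher, 17.4% lower and 33.9% in either direction. Their differences were small, with a median log2 difference of 0.43, which is 1.35-fold, against 0.00 over all probe sets. The signal in *naa20* was higher for 39 of the 41 genes, against 49.5% of all probe sets, and the exceptions were *PAC1* and *RPT5A*. The genes that differed at least 2-fold were 3, namely *PAA2*, *RPT5B* and AT5G20000, while 4.95% of all probe sets were called and at least 2-fold higher. For 37 of the 41 genes all 3 *naa20* arrays lay above all 3 wildtype arrays, which held for 23.4% of all probe sets. An exact two-sided permutation test of 3 arrays against 3 cannot go below p = 0.1.

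The subunit genes were well expressed, as 39 of the 41 lay above the median signal of the table. Among the 16899 probe sets with a mean signal of at least that of the lowest of these genes, 22.2% were called higher in *naa20*, a background added after the data were seen. The count of 0 lower genes was also found at an unadjusted p under 0.05, where 6085 of the 27827 probe sets were lower. With the ordinary variance of each gene *RPT5A* was called lower. The count of higher genes was smaller with any 1 array left out. It was 23 without the first, 30 without the second and 27 without the third *naa20* array. It was 22 without the first, 23 without the second and 31 without the third wildtype array. These fits have fewer arrays, and their share over all probe sets is not given here. Whether calls were lost to the same degree across all probe sets was not tested.

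**Figure D1:**
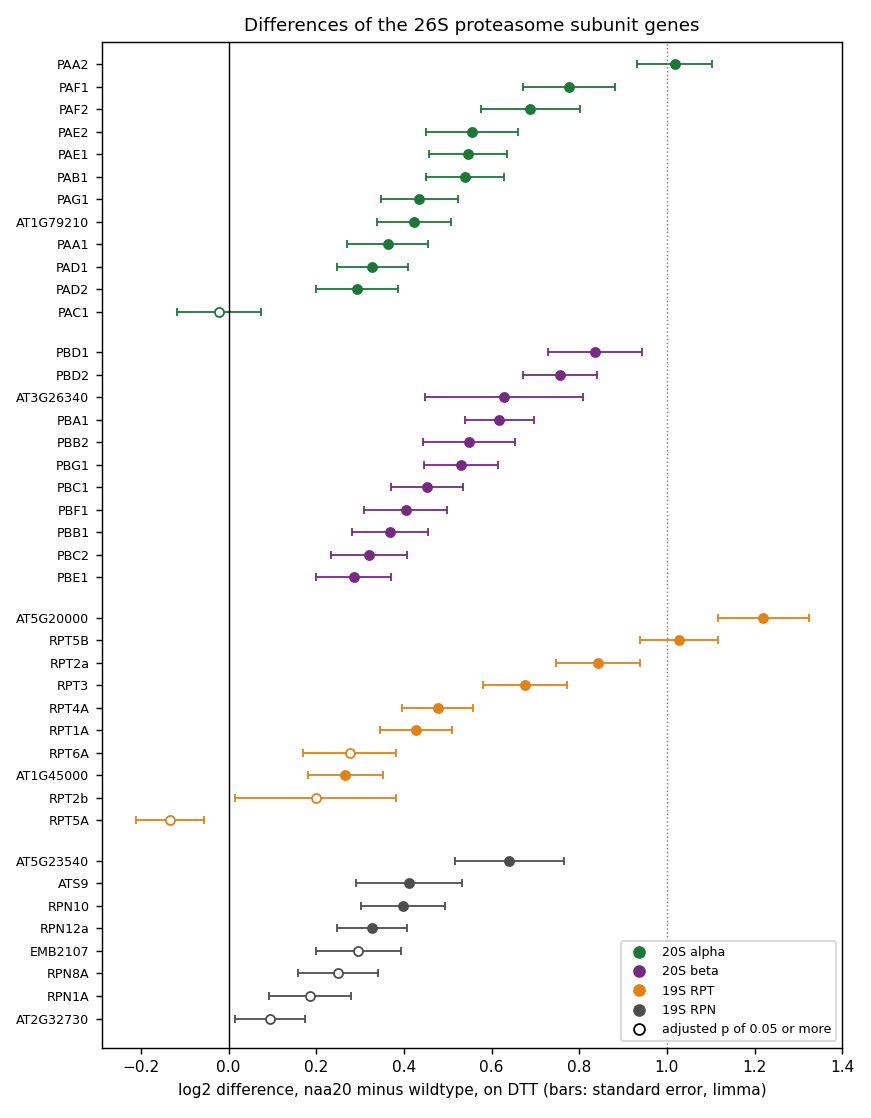
Log2 difference between naa20 and wildtype on DTT for the 41 proteasome subunit genes (horizontal axis, bars are limma's standard error), in 4 blocks by class. Filled points are the 33 genes with an adjusted p under 0.05, the dotted line marks a 2-fold difference, and only PAC1 and RPT5A lie left of 0.

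By array, each gene was set against its own mean over the 6 arrays, which shows the same differences another way and is no further test of them. The median of the 41 deviations was 0.26, 0.20 and 0.19 on the *naa20* arrays and -0.25, -0.23 and -0.17 on the wildtype arrays. On the *naa20* arrays 40, 37 and 39 of the genes lay above their own mean, against 2, 3 and 1 of the genes on the wildtype arrays. The fewest genes above their mean among *naa20* arrays were on the second array, where AT3G26340, *RPT2b* and *RPT6A* had their lowest *naa20* signals.

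**Figure D2:**
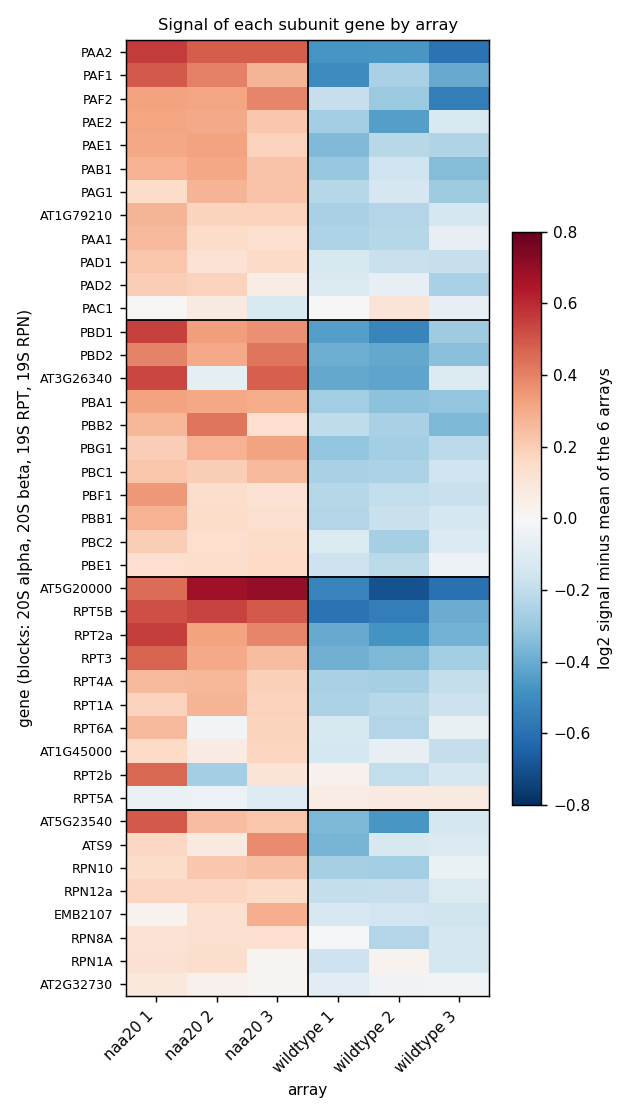
Log2 signal of each proteasome subunit gene (rows) on each array (columns, naa20 left and wildtype right) after subtraction of the gene's mean over the 6 arrays. Red is above and blue below that mean, and the blocks from top to bottom are 20S alpha, 20S beta, 19S RPT and 19S RPN genes.

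The alpha rings close the core particle and dock the regulatory particle. Of the 12 alpha genes, 11 were called higher in *naa20*, against 16.6% of all probe sets, with a median log2 difference of 0.49. The highest difference was that of *PAA2* (AT2G05840), which encodes a form of the first alpha subunit. *PAA2* had log2 signals of 9.16, 9.08 and 9.08 in *naa20* and of 8.12, 8.14 and 8.01 in wildtype. The arrays of the genotypes lay far apart relative to their spread, and the log2 difference was 1.02 (SE 0.08, limma adjusted p = 0.000174). Next were the genes *PAF1* (AT5G42790), also known as *ARS5* from its role in arsenic tolerance, and *PAF2* (AT1G47250). *PAF1* averaged 5.49 ± 0.11 in *naa20* and 4.71 ± 0.12 in wildtype (SD, n = 3 each), and *PAF2* averaged 6.58 ± 0.04 in *naa20* and 5.90 ± 0.19 in wildtype (SD, n = 3 each). Their log2 differences were 0.78 and 0.69. *PAE1* and *PAE2* both differed by 0.55 and *PAB1* by 0.54. *PAA1* (AT5G35590), the gene paired with *PAA2*, had log2 signals of 11.84, 11.72 and 11.71 in *naa20* and of 11.33, 11.35 and 11.51 in wildtype, a smaller log2 difference of 0.36 (SE 0.09). *PAG1* differed by 0.43, AT1G79210 by 0.42, *PAD1* by 0.33 and *PAD2* by 0.29.

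*PAC1* (AT3G22110) was the alpha gene that was not called. Its log2 signals were 7.91, 7.97 and 7.78 in *naa20* and 7.89, 8.00 and 7.83 in wildtype. The genotypes overlapped, and the log2 difference of -0.02 (SE 0.10, limma adjusted p = 0.888) was within the spread of the arrays. For each of the other alpha genes all *naa20* arrays were above all wildtype arrays, which held for 23.4% of all probe sets. Whether *PAC1* differed from the other alpha genes was not tested. AT4G15165, the gene listed beside *PAC1* among further subunit genes, had a log2 difference of 0.71 (limma adjusted p = 0.0105) at signals near the lower end of the array, with 3.99, 3.43 and 3.78 in *naa20* and 3.10, 3.08 and 2.90 in wildtype.

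The beta rings carry the proteolytic sites. All 11 beta genes were called higher in *naa20*, against 16.6% of all probe sets, with a median log2 difference of 0.53. *PBA1* (AT4G31300), the gene of the caspase-like site, had log2 signals of 10.43, 10.41 and 10.40 in *naa20* and of 9.83, 9.78 and 9.79 in wildtype. The spread of *PBA1* within each genotype was very small, and the log2 difference was 0.62 (SE 0.08, limma adjusted p = 0.000964), or 1.53-fold. The genes of the trypsin-like site were *PBB1* (AT3G27430) with a log2 difference of 0.37 and *PBB2* (AT5G40580) with 0.55. *PBE1* (AT1G13060), a gene of the chymotrypsin-like site, had the lowest difference of the class. Its log2 signals were 8.57, 8.58 and 8.59 in *naa20* and 8.27, 8.22 and 8.39 in wildtype. The log2 difference of *PBE1* was 0.29 (SE 0.09, limma adjusted p = 0.0393), and the adjusted p was 0.0592 when the fit paired arrays by replicate number. AT3G26340, listed in this class, had log2 signals of 7.50, 6.90 and 7.45 in *naa20* and of 6.56, 6.55 and 6.86 in wildtype. It spread more widely than any other beta gene in *naa20*, with a log2 difference of 0.63 (SE 0.18, limma adjusted p = 0.0328).

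The beta genes without a proteolytic site were likewise called higher in *naa20*. *PBD1* (AT3G22630) had the highest difference of the class, with log2 signals of 8.62, 8.41 and 8.45 in *naa20* and of 7.63, 7.55 and 7.79 in wildtype. Its log2 difference was 0.84 (SE 0.11, limma adjusted p = 0.000995). *PBD2* (AT4G14800) followed with 0.76 (SE 0.08). *PBG1* differed by 0.53, *PBC1* by 0.45, *PBF1* by 0.40 and *PBC2* by 0.32.

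The RPT ATPases form the ring that contacts the core. Of the 10 RPT genes, 7 were called higher in *naa20*, against 16.6% of all probe sets, with a median log2 difference of 0.45. The class held both the highest and the lowest difference of all 41 genes. AT5G20000, which in the table of genes directly follows *RPT6A* on its chromosome with no protein-coding gene between them, had the highest. Its log2 signals were 6.37, 6.60 and 6.62 in *naa20* and 5.39, 5.23 and 5.32 in wildtype. The lowest *naa20* signal of AT5G20000 was far above its highest wildtype signal, and the log2 difference was 1.22 (SE 0.10, limma adjusted p = 0.000188), or 2.33-fold. *RPT6A* (AT5G19990) itself had log2 signals of 6.50, 6.22 and 6.42 in *naa20* and of 6.12, 6.01 and 6.18 in wildtype. All *naa20* arrays were above all wildtype arrays for *RPT6A*, but the log2 difference of 0.28 (SE 0.11) had a limma adjusted p of 0.0871.

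*RPT5A* (AT3G05530) and *RPT5B* (AT1G09100) encode forms of the same ATPase. *RPT5B* had log2 signals of 8.85, 8.87 and 8.82 in *naa20* and of 7.74, 7.78 and 7.94 in wildtype. Its log2 difference was 1.03 (SE 0.09, limma adjusted p = 0.000212), or 2.04-fold. *RPT5A* had log2 signals of 11.78, 11.79 and 11.74 in *naa20* and of 11.90, 11.91 and 11.91 in wildtype. For *RPT5A* all *naa20* signals were under all wildtype signals, which held for no other of the 41 genes and for 6714 of the 27827 probe sets. Its log2 difference was small at -0.13 (SE 0.08, limma adjusted p = 0.24). With the very small spread of *RPT5A* taken alone, by the ordinary variance per gene, the gene was called lower.

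*RPT3* (AT5G58290), the gene of another ATPase of the ring, had log2 signals of 10.27, 10.11 and 10.05 in *naa20* and of 9.42, 9.45 and 9.54 in wildtype. The genotypes were clearly separate, with a log2 difference of 0.68 (SE 0.10, limma adjusted p = 0.00156). *RPT2a* (AT4G29040), a form of the ATPase that takes part in opening the gate of the core, had log2 signals of 8.78, 8.55 and 8.62 in *naa20* and of 7.82, 7.75 and 7.85 in wildtype. Its genotypes did not overlap, and the log2 difference was 0.84 (SE 0.10, limma adjusted p = 0.000597). *RPT2b* (AT2G20140) had log2 signals of 7.46, 6.73 and 7.11 in *naa20* and of 7.04, 6.80 and 6.86 in wildtype. It overlapped between the genotypes and had the widest spread of the class in *naa20*, with a log2 difference of 0.20 (SE 0.18, limma adjusted p = 0.466). *RPT4A* differed by 0.48 and *RPT1A* by 0.43. AT1G45000 differed by 0.27 with a limma adjusted p of 0.0489, and of 0.0846 when arrays were paired by replicate number.

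The RPN genes encode the subunits without ATPase activity. Of the 8 RPN genes, 4 were called higher in *naa20*, against 16.6% of all probe sets. Their median log2 difference of 0.31 was the lowest of the classes. All 8 had a positive difference. Whether the class differed from the others was not tested. AT5G23540 had the highest difference, with log2 signals of 11.81, 11.57 and 11.54 in *naa20* and of 10.96, 10.86 and 11.19 in wildtype. Its lowest *naa20* signal was above its highest wildtype signal, and the log2 difference was 0.64 (SE 0.12, limma adjusted p = 0.00649). The other called genes were *ATS9* (AT1G29150), also named *RPN6*, with 0.41, the ubiquitin receptor gene *RPN10* (AT4G38630) with 0.40, and *RPN12a* (AT1G64520) with 0.33. *RPN12a* averaged 11.65 ± 0.01 in *naa20* and 11.32 ± 0.04 in wildtype (SD, n = 3 each), which is 1.25-fold and a clear separation for a small difference.

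The RPN genes that were not called had small positive differences. AT2G32730 had the lowest, with log2 signals of 10.30, 10.25 and 10.24 in *naa20* and of 10.13, 10.18 and 10.19 in wildtype, a log2 difference of 0.09 (SE 0.08, limma adjusted p = 0.421). *RPN1A* (AT2G20580), the gene of a large scaffold subunit that docks ubiquitin shuttle proteins, had a log2 difference of 0.19 (SE 0.09, limma adjusted p = 0.178), and its genotypes overlapped. *RPN8A* (AT5G05780), known from mutants with altered leaf polarity, differed by 0.25 with a limma adjusted p of 0.076. *EMB2107* (AT5G09900), also named *RPN5A* and needed for embryo development, differed by 0.30 with a limma adjusted p of 0.0525, just outside the threshold, while AT1G45000 was the gene just inside it.

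**Figure D3:**
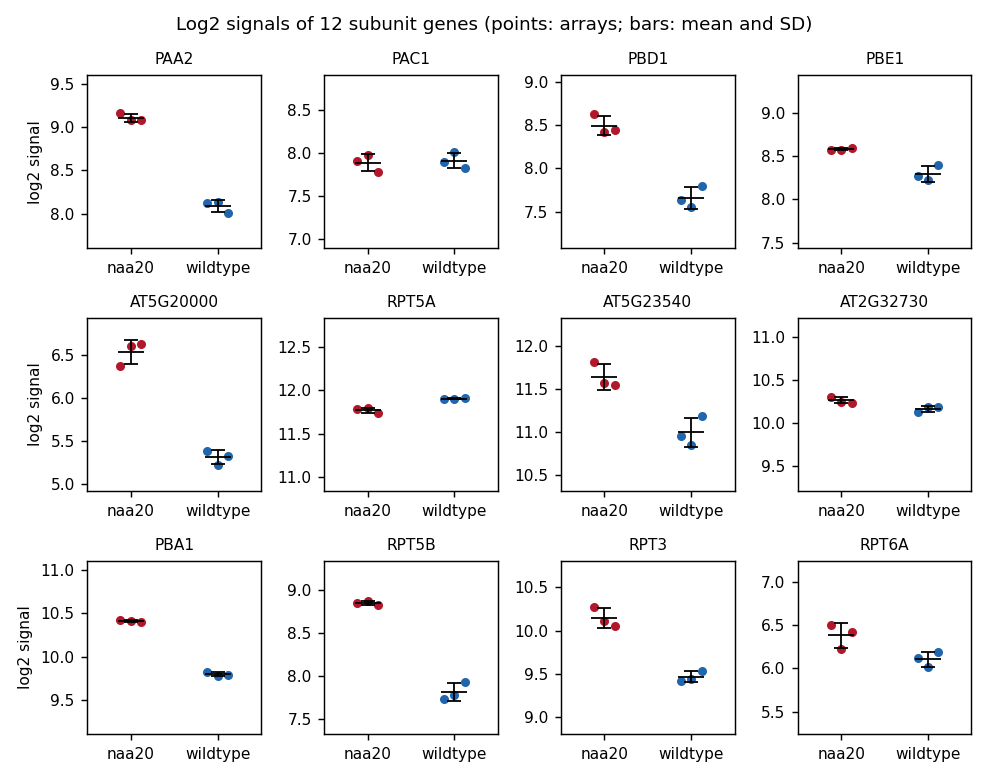
Log2 signals of 12 proteasome subunit genes on the 3 naa20 arrays (left, red) and the 3 wildtype arrays (right, blue), with mean and SD as black bars; each vertical axis spans 2 log2 units around the gene's mean. AT5G20000, RPT5B and PAA2 show differences above 1, PAC1 overlaps, and RPT5A is slightly lower in naa20.

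Genes of the same subunit were set beside each other in 13 pairs, of which 9 have 2 genes named for the subunit and 4 hold a gene given by locus. The log2 differences between *naa20* and wildtype were within 0.1 of each other in 4 pairs, *PAE1* and *PAE2*, *PAD1* and *PAD2*, *PBD1* and *PBD2*, and *PAF1* and *PAF2*. They were more than 0.5 apart in 4 other pairs. *RPT5B* and *RPT5A* were farthest apart, by 1.16, followed by AT5G20000 and *RPT6A* with 0.94, *PAA2* and *PAA1* with 0.65, and *RPT2a* and *RPT2b* with 0.64. These pairs are named for their distance, which is a description. An exact two-sided permutation test of the log2 ratio of the 2 genes gave p = 0.1 for each of these 4 pairs. It cannot go lower with 3 arrays against 3, so it cannot decide. The ratios of the genotypes did not overlap in 6 of the 13 pairs. These were the 4 pairs, *PBC1* and *PBC2*, and *RPT4A* and AT1G45000. In each pair the gene with the larger absolute difference was set first, so the direction of the ratio was picked from these same values. The share among other pairs of genes of the array is not given here, so this count is a description. The SD over 3 arrays of the log2 ratio of the genes was 0.01 in *naa20* and 0.10 in wildtype for *RPT5B* over *RPT5A*, and 0.25 in *naa20* and 0.11 in wildtype for *RPT2a* over *RPT2b*. Closely related genes can share signal on probes, so that the separate values of a pair are less certain than those of single-gene subunits such as *PBA1*, *PAG1* or *RPT3*.

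**Figure D4:**
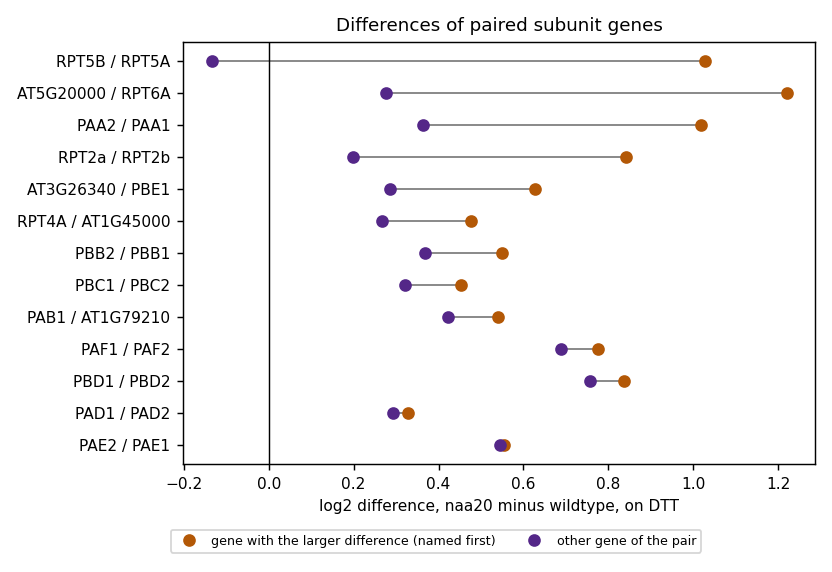
Log2 difference between naa20 and wildtype on DTT (horizontal axis) for both genes of 13 pairs, sorted by their distance; orange marks the gene with the larger difference and purple the other. RPT5B and RPT5A are farthest apart, by 1.16, and PAE2 and PAE1 are at nearly the same value.

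Further genes of the pathway were taken from lists of textbook members. Of 15 other genes listed for proteasome subunits, all had a positive difference in *naa20*. By limma, 8 were called higher and 0 lower (0 lower also at an unadjusted p under 0.05). Over all probe sets, 49.5% had a positive difference, 16.6% were called higher and 17.4% lower. At an unadjusted p under 0.05, 6085 of the 27827 probe sets were lower. The median log2 difference of the 15 genes was 0.33. With these genes added to the 41, 41 of 56 genes were called higher. *MEE34* (AT3G11270) had the highest difference of this list with 0.75 (SE 0.15), next to AT4G19006 with 0.73, and AT1G75990 the lowest with 0.01. AT1G04810, annotated in the study as a gene of the RPN2 subunit, differed by 0.33 (limma adjusted p = 0.0227). The ubiquitin receptor gene *RPN13* differed by 0.21 with a limma adjusted p of 0.12. *DSS1(V)*, which encodes a very small lid subunit, was called higher with 0.35, and *DSS1(I)* had 0.23 with a limma adjusted p of 0.341.

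Of 11 genes of proteasome assembly and regulation, 10 had a positive difference. By limma, 9 were called higher and 0 lower (0 lower also at an unadjusted p under 0.05). Over all probe sets, 49.5% had a positive difference, 16.6% were called higher and 17.4% lower. The median log2 difference of the 11 genes was 0.37. *PA200*, the gene of an alternative cap of the core particle, was highest. It had log2 signals of 10.78, 10.58 and 10.67 in *naa20* and of 9.92, 9.78 and 10.00 in wildtype, a log2 difference of 0.77 (SE 0.10, limma adjusted p = 0.00109). *UBP6*, a deubiquitinating enzyme that binds the proteasome, differed by 0.59 and its relative *UBP7* by 0.30. *NAC053* and *NAC2* (*anac078*) encode the pair of NAC transcription factors that activate proteasome genes when the proteasome is impaired. *NAC053* had log2 signals of 9.54, 9.37 and 9.26 in *naa20* and of 8.81, 8.74 and 8.88 in wildtype, with a log2 difference of 0.58 (SE 0.10, limma adjusted p = 0.00455). *NAC2* differed by 0.30 (SE 0.09, limma adjusted p = 0.0315). The ubiquitin hydrolase gene *UCH1* was the one with a negative difference, -0.20 (limma adjusted p = 0.153), with all *naa20* arrays below all wildtype arrays.

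Genes of ubiquitin supply and of substrate delivery were called in both directions. Of 17 genes, 5 were called higher and *RAD23C* was called lower in *naa20*, with a median log2 difference of 0.22, against 16.6% higher and 17.4% lower over all probe sets and 22.2% higher among those with a mean signal of at least that of the lowest subunit gene. The count of higher genes was thus near that background. *AtCDC48B*, a gene of the family of CDC48, the ATPase that extracts ubiquitinated proteins from complexes and membranes, had the highest difference of all genes listed. It had log2 signals of 8.44, 8.31 and 8.76 in *naa20* and of 6.47, 6.28 and 6.82 in wildtype, a log2 difference of 1.98 (SE 0.17, limma adjusted p = 0.000212), or 3.95-fold. *CDC48* differed by 0.43 and the polyubiquitin gene *UBQ4* by 0.74, both called. Among shuttle proteins that carry ubiquitinated substrates to the proteasome, *DDI1* with 0.55 and *DSK2* with 0.43 were called higher. *RAD23C* had log2 signals of 8.73, 9.05 and 8.72 in *naa20* and of 9.21, 9.44 and 9.26 in wildtype, a log2 difference of -0.47 (SE 0.12, limma adjusted p = 0.0229). *RAD23B* with a log2 difference of -0.17 and *RAD23D* with -0.08 were not called.

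**Figure D5:**
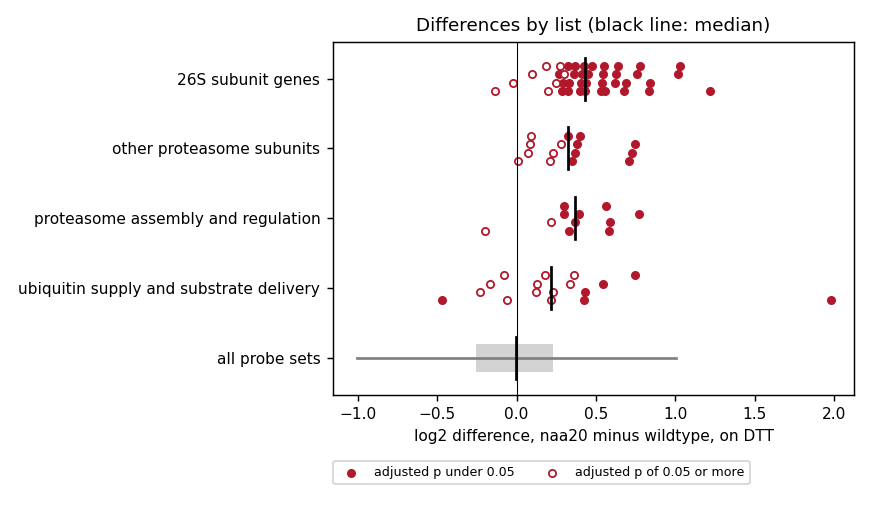
Log2 difference between naa20 and wildtype on DTT for the 41 proteasome subunit genes, the lists of further pathway genes and all 27827 probe sets (grey bar, middle 50% of probe sets, and line, 5th to 95th percentile); black lines are medians. Medians are 0.43, 0.33, 0.37 and 0.22 in the lists, against 0.00 over all probe sets.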

How the data were processed

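The values are log2 signals that the authors deposited, made by RMA with background correction and quantile normalization for probe sets of a custom chip definition (version 16) based on TAIR genes. Their sorted values are the same on all 6 arrays, from 1.75 to 14.6, and no scanner files were used, so that background per probe could not be examined. The signals were used as deposited. Differences, *naa20* minus wildtype, were estimated from 3 arrays each by lmFit and eBayes of limma 3.58.1 (R 4.3.3) over all 27827 probe sets, with Benjamini-Hochberg adjustment. A gene was called at an adjusted p under 0.05. Values for 2-fold differences are given as well, the limit the study used. The number of arrays limits the precision. The fit was tested on simulated data. Plots were made in Python 3.11.15 with matplotlib 3.10.9.

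The 41 genes and the lists were chosen with earlier results of these data known. Each of the 41 is given by name, with values per array for the highest and lowest of each class, those at least 2-fold different, both genes of a pair that differ in sign with one called (*RPT5A* and *RPT5B*), *PBA1*, *RPT3*, *PBE1*, AT3G26340 and AT5G23540. Values per array of *PAA1*, *RPT2a*, *RPT2b* and *RPT6A* were added after their values were seen. Of the further lists, the highest and lowest genes and those called and at least 2-fold different are given, and other genes named from them were added after their values were seen. Names came from a table of RefSeq genes (TAIR10.1), used for names and gene order only. Protein and promoter sequences were not analysed here, and no genes of similar pattern are given because the arrays fall into the 2 genotypes.

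To see whether arrays of the same number belong together, each array's deviations from its genotype mean were correlated across genes with those of the other genotype. Arrays of the same number gave 0.176, 0.19 and 0.385, all over 0.1, and were taken as paired in an alternative fit, although *naa20* array 1 with wildtype array 2 reached 0.174. What a number shares is not stated. Alternatives were other variance models, the block, array weights, a filter leaving out the 25% of probe sets with the lowest signal, centring, and leaving out each array.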

Additional observations from a re-analysis of the deposited data

How the results depend on the processing

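The count of 33 subunit genes called higher in *naa20* was 33 with trend and robust moderation, 30 with the ordinary variance per gene, 31 with the replicate number as a block, 34 with array weights, 34 without the 25% of probe sets with the lowest signal, 32 after centring and 36 at an unadjusted p under 0.05. Leaving out single arrays gave 22 to 31, in fits with fewer arrays. With at least a 2-fold difference required as well it was 3, by construction. The count of lower genes was 0 in all of these except with the ordinary variance, where it was 1, *RPT5A*. For the alternative fits, and for higher genes at an unadjusted p, the share over all probe sets is not given here. The count of genes at least 2-fold different was 3, and 2 to 3 with each array left out. In all, 21 of the 33 called genes kept their direction and call in every alternative fit, and 40 of 41 genes kept their sign. The other 12 lost their call without at least 1 array, namely *PAA1*, *PAD1*, *PAD2*, *PBB1*, *PBC2*, *PBE1*, AT3G26340, *PBF1*, AT1G45000, *ATS9*, *RPN10* and *RPN12a*. Without wildtype array 1, 11 of these lost it, *PAD1* being the exception, and AT1G45000 and *PAD2* lost it whichever array was left out. The gene that changed sign was *PAC1*, whose difference of -0.02 ranged from -0.066 to 0.032 as single arrays were left out. The replicate block ended the calls of *PBE1* (limma adjusted p = 0.0592) and AT1G45000 (limma adjusted p = 0.0846) and no other call of the 41. Among the further genes listed it ended the call of AT1G67250 and added that of *UBA 2* (limma adjusted p = 0.061 and 0.0426). The median log2 difference of the 41 genes ranged from 0.41 to 0.46 without single arrays, that of the alpha genes between 0.47 and 0.50, of the beta genes between 0.47 and 0.53, of the RPT genes between 0.43 and 0.48 and of the RPN genes between 0.28 and 0.34. The depth of signal over background is not known for these arrays.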
